A study of Mus musculus with 4 samples.

Results

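Glucocorticoid target genes are transcripts that many cell types raise when the glucocorticoid receptor binds cortisol or corticosterone. Here 10 of them were taken by name (Fkbp5, Tsc22d3, Sgk1, Zbtb16, Klf9, Ddit4, Errfi1, Mt1, Mt2 and Cebpd) and looked up by gene symbol. Of these, 9 were found among the 27933 genes of the count tables and all 9 passed the low-count filter, which kept 13348 genes. Cebpd, which encodes a C/EBP transcription factor, was not analysed here.

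The cells were melanocyte stem cells of mouse skin, the precursors of hair pigment cells, purified by fluorescence-activated cell sorting. The control mice were given saline (n = 2 libraries) and the mice called stressed were given RTX (n = 2), an agent the labels name only by this abbreviation. A protocol entry shared by all 4 samples gives harvest 12 h after RTX injection. The sources used here do not give the strain, age or genotype of the mice, the gate used to sort the cells, or whether the libraries of a group came from different animals. Any p-value therefore measures only how far these libraries spread, and that spread may be technical. Where 4 values are given for a gene, the saline pair and the RTX pair are each in the order replicate 1, replicate 2. In bulk RNA, fewer cells of a type and less RNA per cell cannot be told apart.

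Stress in mammals acts on the skin partly through the adrenal cortex, which releases glucocorticoid hormone into the blood. The hormone enters cells and binds a receptor held ready by HSP90 chaperones, and the complex moves to the nucleus and binds DNA at palindromic elements. The products of its targets feed back on the receptor (Fkbp5), dampen inflammation (Tsc22d3), act in salt transport and survival (Sgk1), restrain growth signals (Ddit4, Errfi1), regulate transcription (Klf9, Zbtb16) or bind metal ions (Mt1, Mt2). Several of these genes also respond to cAMP, growth factors, metals, the circadian clock or lack of oxygen.

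The DNA just ahead of these genes was read from RefSeq windows on the build GRCm38.p6, each cut to the 250 bases before an annotated start. Windows were found for 8 of the 10 genes (16 windows in all, since Sgk1 has 6, Tsc22d3 3 and Errfi1 2), and none for Zbtb16 or Cebpd. The full 15-letter palindrome, AGAACA and TGTTCT with any 3 bases between them, searched on both strands, lay in 3 of 32851 windows of all genes (0.00913%). One of these 3 belongs to Sgk1, at bases -189 to -175 from the start at the fifth of its windows. The 6-letter arm TGTTCT, which the palindrome contains on each strand, was found in 16.1% of all windows and in 4 of the 16 windows here. These were windows of Sgk1 and Tsc22d3 only. The sequences below are the Sgk1 window with the palindrome, those of Fkbp5 and of Klf9, the member nearest to it in profile, and those of the adjacent metallothionein genes Mt1 and Mt2. Capitals mark the palindrome, the E-box CACGTG and the metal response cores TGCACNC and TGCGCNC, with the arm alone left in lower case.
Sgk1 (chr10:21993640-21993889, plus strand): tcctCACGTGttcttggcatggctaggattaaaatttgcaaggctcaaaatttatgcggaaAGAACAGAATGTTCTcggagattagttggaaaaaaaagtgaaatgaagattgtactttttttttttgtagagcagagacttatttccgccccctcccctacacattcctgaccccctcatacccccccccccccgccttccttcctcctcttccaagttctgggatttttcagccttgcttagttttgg
Fkbp5 (chr17:28486150-28486399, minus strand): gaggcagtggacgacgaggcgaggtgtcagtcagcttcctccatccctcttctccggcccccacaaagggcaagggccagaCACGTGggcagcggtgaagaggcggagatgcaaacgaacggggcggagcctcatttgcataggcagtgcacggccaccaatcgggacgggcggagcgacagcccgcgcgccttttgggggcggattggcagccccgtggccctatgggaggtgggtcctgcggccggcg
Klf9 (chr19:23140976-23141225, plus strand): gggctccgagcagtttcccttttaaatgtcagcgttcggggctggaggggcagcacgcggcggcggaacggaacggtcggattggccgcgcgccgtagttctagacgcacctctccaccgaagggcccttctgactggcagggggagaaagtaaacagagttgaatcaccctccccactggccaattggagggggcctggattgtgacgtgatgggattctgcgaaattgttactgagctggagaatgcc
Mt1 (chr8:94178839-94179088, plus strand): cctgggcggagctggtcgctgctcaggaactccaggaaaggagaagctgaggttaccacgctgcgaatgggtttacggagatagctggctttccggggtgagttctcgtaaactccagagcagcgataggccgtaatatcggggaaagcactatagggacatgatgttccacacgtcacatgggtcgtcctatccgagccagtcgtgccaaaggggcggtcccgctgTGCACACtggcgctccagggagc
Mt2 (chr8:94172368-94172617, plus strand): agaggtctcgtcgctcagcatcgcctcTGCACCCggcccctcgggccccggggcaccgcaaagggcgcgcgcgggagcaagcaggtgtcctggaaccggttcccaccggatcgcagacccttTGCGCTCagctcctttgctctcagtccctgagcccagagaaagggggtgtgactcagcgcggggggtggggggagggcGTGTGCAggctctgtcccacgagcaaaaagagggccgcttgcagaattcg
In the Sgk1 window the palindrome reads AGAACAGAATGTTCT, and an E-box at bases -246 to -241 overlaps a further arm at -242 to -237. The Fkbp5 window held an E-box at -169 to -164, which 6.02% of all windows hold, and the Klf9 window held no match to any motif searched. Of the metal response cores, TGCACNC (10.4% of windows) lay at -23 to -17 in Mt1 and at -223 to -217 and -50 to -44 in Mt2. The other form, TGCGCNC (12.5% of windows), lay at -128 to -122 in Mt2 and at -184 to -178 in Ddit4. The cAMP element TGACGTCA, held by 1.55% of windows, lay at -51 to -44 in Errfi1. The TATA box TATAAA, held by 12.4% of windows, was found in 1 of the Errfi1 windows and 2 of the Sgk1 windows. A match describes the letters only, and gene-level counts do not tell which start was used.

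No member passed the test between stressed and control cells, and the members' main feature was a wide gap between the control libraries. In Fkbp5, Klf9, Zbtb16, Tsc22d3, Mt2 and Mt1, control replicate 2 had the highest level of the 4 libraries and control replicate 1 the lowest, with both stressed libraries in between. This order held in 6 of 9 members, against 9.3% of all tested genes. In the same 6 members control replicate 2 was more than 2-fold above control replicate 1, which was so for 6.54% of tested genes. The opposite gap, with control replicate 1 more than 2-fold higher, was found in 0 of 9 members and in 7.77% of tested genes. The median gap (log2 CPM of control replicate 2 minus control replicate 1) was 1.18 in the members and 0.0024 over all tested genes. Levels are given as CPM, which relates a gene's reads to the TMM-scaled total of its library.

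**Figure D1:**
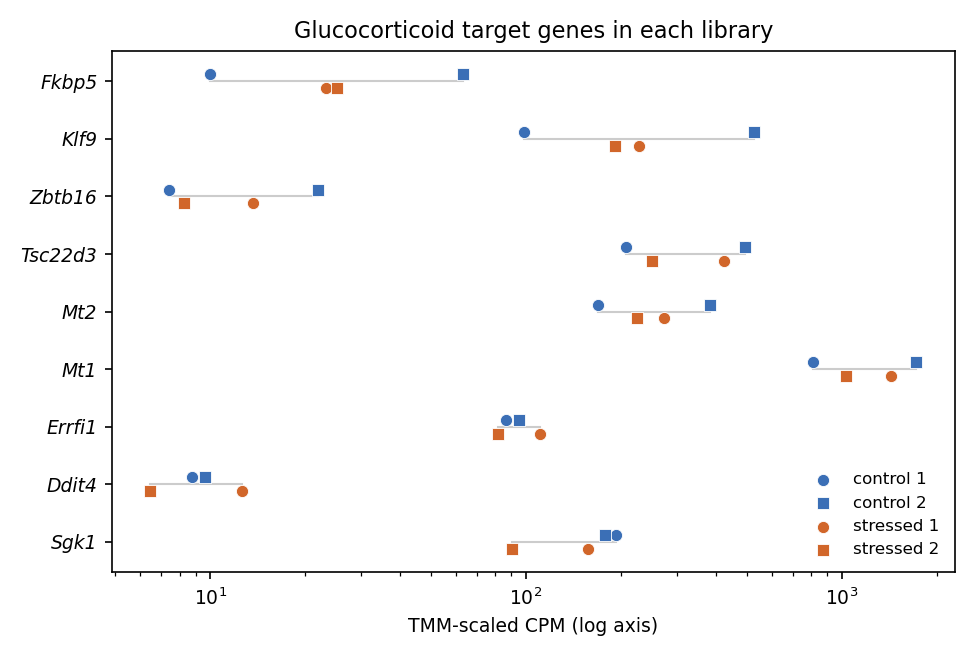
TMM-scaled CPM on a log axis for the 9 members in each of the 4 libraries, with control libraries in blue and stressed libraries in orange. Each grey line runs from a gene's lowest to its highest library. In the upper 6 genes the control libraries stand at both ends, from 9.96 to 63.0 CPM in Fkbp5, and only in Sgk1 do both stressed libraries lie below both controls.

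Fkbp5 (chromosome 17, 28399095-28517524, mm10), which encodes a co-chaperone that lowers the hormone affinity of the glucocorticoid receptor, had the widest gap. Its counts were 93 in control replicate 1, 744 in control replicate 2, 248 in stressed replicate 1 and 278 in stressed replicate 2. Control replicate 2 was 6.33-fold above control replicate 1 in CPM, with a 95% interval of 5.09 to 7.94 that covers counting error only. The stressed pair was close, at 23.3 and 25.3 CPM. Both stressed values lay above one control and below the other, and the fitted log2 fold change of -0.59 had an SE of 0.73 (edgeR quasi-likelihood adjusted p = 0.804).

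Klf9 (chromosome 19, 23141226-23166911), a Krüppel-like transcription factor gene, followed the same order at a higher level. It had 98.4 and 528 CPM with saline and 228 and 191 CPM with RTX. The control libraries were 5.37-fold apart (95% counting interval 5.01 to 5.76) and the stressed libraries 1.19-fold. Its log2 fold change was -0.58 with an SE of 0.67 (edgeR adjusted p = 0.785). Fkbp5 and Klf9 were the 2 members whose controls were more than 4-fold apart, against 4.53% of tested genes.

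Zbtb16 and Tsc22d3 showed the order with a narrower control gap and a wider stressed gap. Zbtb16 (chromosome 9, 48654311-48835945), which encodes the zinc finger protein PLZF, had 7.39 and 21.9 CPM with saline and 13.7 and 8.27 CPM with RTX. Stressed replicate 2 was thus close to the lower control, and the log2 fold change was -0.42 with an SE of 0.56 (edgeR adjusted p = 0.82). Tsc22d3 (chromosome X, 140539528-140600659), which encodes the anti-inflammatory leucine zipper protein GILZ, had 1943 and 5814 counts with saline and 4516 and 2752 with RTX. Its stressed libraries were 1.69-fold apart, replicate 1 being the higher, and its log2 fold change was -0.056 with an SE of 0.44 (edgeR adjusted p = 0.976).

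The metallothioneins Mt1 and Mt2, small cysteine-rich proteins that bind zinc and copper, moved in parallel. Mt1 (chromosome 8, 94179089-94180325) had 813 and 1725 CPM with saline and 1438 and 1036 CPM with RTX. Mt2 (chromosome 8, 94172618-94173567) had 169 and 382 CPM with saline and 273 and 224 CPM with RTX, in the same order of libraries. Both control pairs were a little over 2-fold apart, at 2.12-fold and 2.26-fold. The log2 fold changes were -0.037 for Mt1 (SE 0.39) and -0.15 for Mt2 (SE 0.38), with edgeR adjusted p values of 0.984 and 0.921. The proteins are close relatives, and of the treatment of reads shared by related transcripts only the minimum mapping quality of 30 is known.

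Sgk1, Errfi1 and Ddit4 had control libraries that were close together. Sgk1 (chromosome 10, 21882184-21999903), which encodes a kinase that regulates ion channels and cell survival, had 193 and 178 CPM with saline and 158 and 90.0 CPM with RTX. It was the 1 member of 9 whose groups did not overlap, a separation found for 44.7% of tested genes (22.9% with the stressed libraries lower). Its log2 fold change of -0.58 had an SE of 0.28 and the smallest adjusted p of the members by either tool (edgeR 0.459, DESeq2 0.403). Without stressed replicate 1 the value was -1.04, and without stressed replicate 2 it was -0.22.

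Errfi1 (chromosome 4, 150853919-150868892), whose product inhibits ERBB receptors, had 86.3 and 95.1 CPM with saline and 111 and 81.4 CPM with RTX. Ddit4 (chromosome 10, 59949675-59951770), which encodes the TORC1 inhibitor REDD1, had few reads, with 82 and 114 counts with saline and 134 and 71 with RTX. For both genes the stressed libraries lay on either side of the controls. Their log2 fold changes were 0.084 (SE 0.21) and 0.044 (SE 0.44). Ddit4 was between 6.46 and 12.6 CPM, and its stressed libraries were 1.95-fold apart, the widest stressed gap of the members.

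**Figure D2:**
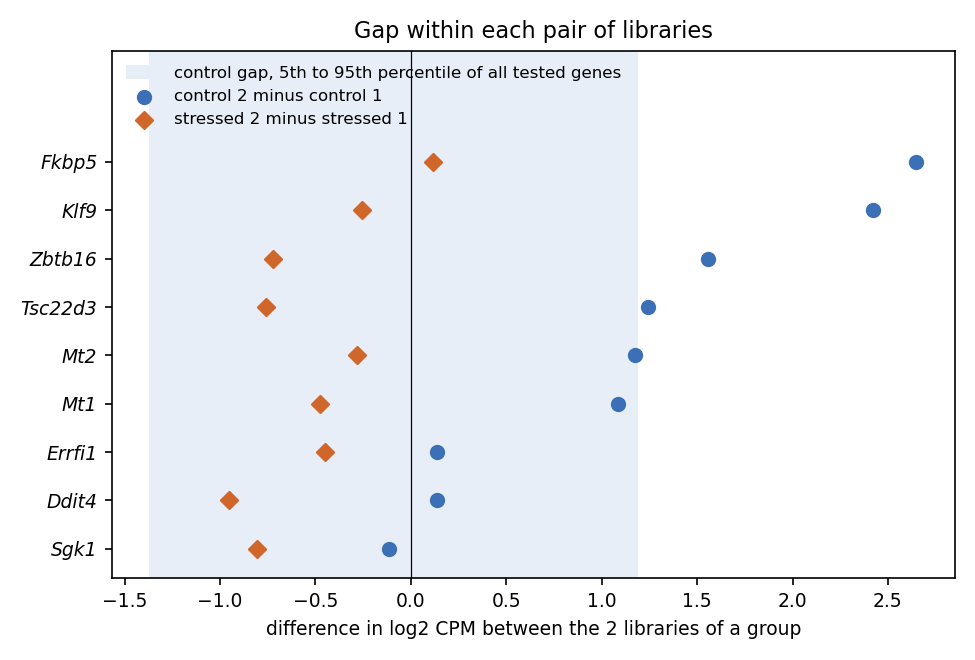
Difference in log2 CPM between the libraries of a group, for each member, with the control pair as blue circles and the stressed pair as orange diamonds. The shaded band holds the control gap of all tested genes from the 5th percentile (-1.37) to the 95th (1.18), and the circles of Fkbp5, Klf9, Zbtb16 and Tsc22d3 lie to its right.

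In the 6 genes with a wide control gap the stressed libraries differed less than the controls. This follows from both stressed libraries lying between the controls and is no separate result. In Sgk1, Errfi1 and Ddit4 the stressed libraries differed more than the controls. Over the members the median gap of the stressed pair, without regard to sign, was 0.47 log2 units, against 1.18 for the control pair. Over all tested genes the same medians were 0.25 and 0.37. None of the members had stressed libraries more than 2-fold apart, which 8.68% of tested genes did. Stressed replicate 1 was above stressed replicate 2 in 8 of 9 members, the exception being Fkbp5, and this was so for 50% of tested genes.

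Other differences ran alongside the control gap. Summed over 9 leukocyte markers, control replicate 2 had 56.9 CPM, against 11.8 in control replicate 1 and 7.04 and 10.5 in the stressed libraries. Most of this was Cd74 (35.3 CPM in control replicate 2, 4.98 to 6.64 elsewhere) and H2-Aa, both genes of antigen presentation, while the pan-leukocyte gene Ptprc had between 0 and 6 counts in each library. The mitochondrially encoded share of counts was 0.906% and 2.07% with saline and 0.479% and 0.405% with RTX. The 17 keratinocyte markers summed to 30094 and 18593 CPM with saline and 12375 and 10773 CPM with RTX. In 11 of the 17 each stressed library was below each control, against 22.9% of tested genes. Krt6a ran the other way, with 6.75 and 55.8 CPM with saline and 76.4 and 71.5 CPM with RTX. The 9 melanocyte markers summed to 22930 and 21866 CPM with saline and 40033 and 37418 CPM with RTX, and all 9 had counts. In Mitf, Sox10 and Ednrb the groups overlapped. In the rest each stressed library was above each control, a separation found in 21.8% of tested genes. Sox10 had 490 and 890 CPM with saline and 685 and 774 CPM with RTX. The melanocyte sum was below that of the keratinocyte markers in control replicate 1 and above it in the other 3 libraries, so these libraries held transcripts of both cell types. The 8 fibroblast markers summed to 6.11 and 17.4 CPM with saline. Their sum was highest in stressed replicate 1 and was 12.8 CPM in stressed replicate 2. Dcn, a matrix proteoglycan gene, had 2 counts in control replicate 1 and 83 to 161 in the others. The collagen gene Col1a1 did not follow Dcn, with 20 and 15 counts with saline and 6 and 2 with RTX. It was the 1 fibroblast marker of 8 with each stressed library below each control, and 2 of the 8 had no counts. Smooth muscle markers summed to 5.57 to 11.9 CPM and adipocyte markers to 19.3 to 28.7 CPM. Most of the adipocyte sum was Lpl, at 18.7 to 28.7 CPM, and 1 of the 4 adipocyte markers had no counts. Markers of endothelium and mast cells stayed below 3 CPM in sum, with 2 genes of each list at 0 in all libraries. The part that these differences had in the values of the glucocorticoid targets was not tested.

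Leaving out one control library reversed the direction of most members. With all 4 libraries 7 of 9 members were lower in stressed cells and 2 higher, against 50.9% and 49.1% of tested genes, and the median log2 fold change was -0.15, against -0.0091 over all tested genes. By edgeR 0 of 9 members passed an adjusted p of 0.05, as did 0% of all tested genes, and 0 of 9 had an unadjusted p below that value (12.8% of tested genes). By limma-voom the counts of members were also 0 and 0, against 0% and 12.7% of tested genes. By DESeq2, also 0 of 9 members passed, where 4.41% of tested genes did. Without control replicate 1 the median of the members was -0.54, and without control replicate 2 it was 0.57. The sign differed between these fits in 7 of 9 members, against 35.6% of tested genes, and stayed the same in Sgk1 and Errfi1. In 6 of the 7 both stressed libraries lay between the controls, so the turn follows from that order and is no separate result. The remaining gene was Ddit4.

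Fkbp5 and Klf9 were called in opposite directions. Without control replicate 1, Fkbp5 was lower in stressed cells by a log2 fold change of -1.37 (edgeR adjusted p = 0.00211) and Klf9 by -1.33 (adjusted p = 0.000176). Without control replicate 2, Fkbp5 was higher by 1.28 (edgeR adjusted p = 0.0462) and Klf9 by 1.09 (adjusted p = 0.0118). Each of these fits sets 2 stressed libraries against 1 control, whose spread is taken from the stressed pair. In DESeq2 the Klf9 calls were again found in both directions (adjusted p = 3.06e-06 and 0.00113), and the Fkbp5 call without control replicate 1 (adjusted p = 0.00954), while without control replicate 2 the adjusted p of Fkbp5 was 0.116.

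**Figure D3:**
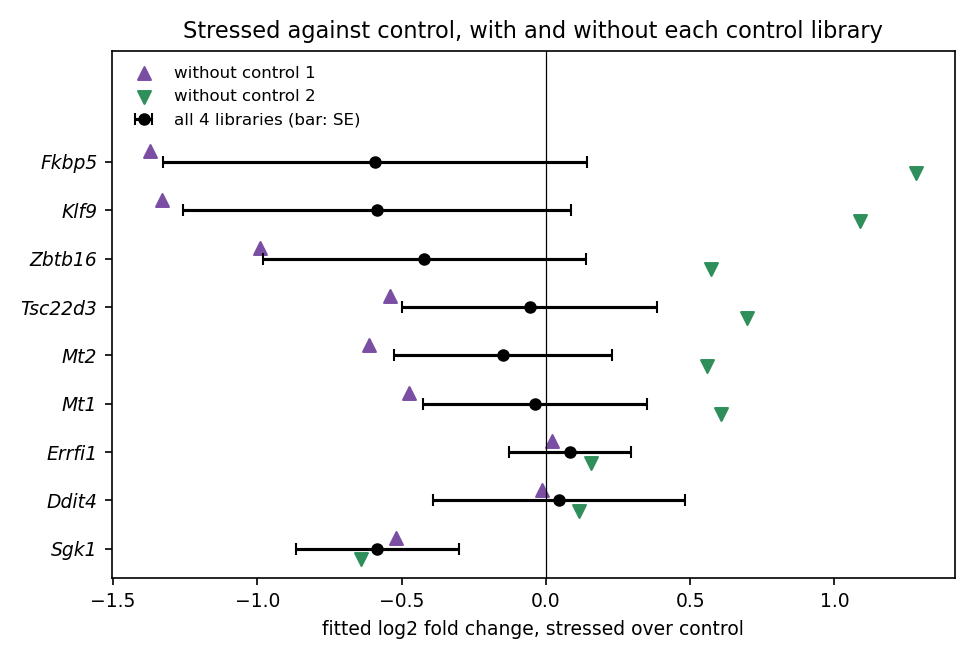
Fitted log2 fold change, stressed over control, for each member, with all 4 libraries (black, bars are 1 SE), without control replicate 1 (purple) and without control replicate 2 (green). In Fkbp5 the values run from -1.37 to 1.28, and Sgk1 and Errfi1 keep their sign.

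Scaled for exon length, the members covered a wide range of levels. In TPM, which divides counts by the exon length in the tables, Mt1 averaged 7557 over the 4 libraries and Mt2 1534, and their ranges did not overlap. Klf9 and Tsc22d3 followed at mean levels of 260.5 and 258 TPM with overlapping ranges. Sgk1 (102 TPM) and Errfi1 (84.9 TPM) also overlapped, and both overlapped with Klf9, which had 94.6 TPM in control replicate 1. The ranges of Ddit4 (18.1 TPM), Fkbp5 (15.5 TPM) and Zbtb16 (8.18 TPM) all overlapped. In control replicate 1 Fkbp5 was at 4.91 TPM, close to Zbtb16 at 4.54 TPM, and in control replicate 2 it was at 31.8 TPM.

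The genes whose profile over the 4 libraries lay nearest to that of Fkbp5 were sought among 9960 others with a mean of at least 10 CPM, by Euclidean distance between centred log2 CPM values. The 5 nearest were Ifi47, Plce1, Klf9, Tgtp2 and H6pd, at distances of 0.22 to 0.48 log2 units. Ifi47 and Tgtp2 encode interferon-inducible GTPases, and both had their highest value in control replicate 2, with 373 and 324 counts against 50 and 28 counts in control replicate 1. Plce1, a phospholipase C gene, had 6.86 and 35.3 CPM with saline and 15.2 and 15.8 CPM with RTX. H6pd encodes the enzyme that supplies NADPH for the reactivation of glucocorticoids in the endoplasmic reticulum, and had 28 and 229 counts with saline and 110 and 81 with RTX. Of the other members, Zbtb16 ranked 58, Mt2 100, Tsc22d3 156 and Mt1 167 in this order, while Errfi1 ranked 3691 and Sgk1 7398. Distances over 4 libraries that share a depth and a scaling are a description only.

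Of 17 tested genes for the receptor, its chaperones, its coregulators and the enzymes that act on the hormone, 3 rose by DESeq2 and none passed edgeR. Nr3c1, the glucocorticoid receptor gene, had 152 and 215 CPM with saline and 168 and 171 CPM with RTX. Nr3c2, which encodes the mineralocorticoid receptor that also binds glucocorticoids, had 53 and 150 counts with saline and 75 and 66 with RTX. Both genes thus had control replicate 2 as the highest library. The enzymes that interconvert active and inactive hormone were low. Hsd11b1, the activating enzyme, had 3.54 and 3.47 CPM with saline and 2.16 and 1.45 CPM with RTX. Hsd11b2, the inactivating enzyme, had 0 and 8 counts with saline and 1 and 2 with RTX, where a count of 0 allows up to 3 counts.

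Among the chaperones that hold the receptor in its hormone-binding state, 3 genes rose by DESeq2. Hsp90aa1, the inducible HSP90 gene, had 205 and 173 CPM with saline and 444 and 390 CPM with RTX (DESeq2 log2 fold change 1.15, adjusted p = 1.51e-05). Hsp90ab1, the constitutive HSP90 gene, had 1445 and 1225 CPM with saline and 2097 and 2467 CPM with RTX (DESeq2 adjusted p = 0.00674). Stip1, which encodes the HSP70 to HSP90 adaptor HOP, had 236 and 195 CPM with saline and 316 and 388 CPM with RTX (DESeq2 adjusted p = 0.0414). Fkbp4, which encodes a co-chaperone with the opposite effect of FKBP5 on the receptor, had 382 and 308 CPM with saline and 411 and 517 CPM with RTX, and was not called (edgeR adjusted p = 0.488). Of the 18 genes in this group 17 were tested, and 0 passed edgeR while 3 rose and 0 fell by DESeq2, against 1.75% and 2.67% of tested genes. In 8 of 17 both stressed libraries were above both controls, against 21.8% of tested genes, and the median log2 fold change was 0.066.

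A further list held 25 genes known to respond to glucocorticoids in several cell types. Of the 24 tested, 0 passed edgeR, while 1 rose and 2 fell by DESeq2, against 1.75% and 2.67% of tested genes. Angptl4, which encodes an inhibitor of lipoprotein lipase, had 14.5 and 27.4 CPM with saline and 110 and 111 CPM with RTX, and its log2 fold change was 2.39 ± 0.32 (SE; edgeR adjusted p = 0.121, DESeq2 adjusted p = 2.46e-09). Dusp1, a MAP kinase phosphatase gene, had 910 and 937 CPM with saline and 561 and 337 CPM with RTX (log2 fold change -1.04, edgeR adjusted p = 0.236, DESeq2 adjusted p = 0.00716). Zfp36, which encodes the mRNA decay factor tristetraprolin, had 1287 and 1499 CPM with saline and 851 and 558 CPM with RTX (log2 fold change -0.98, DESeq2 adjusted p = 0.0065). The median of the 24 was -0.36, and 17 were lower, against 50.9% of tested genes.

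The wide control gap of 6 of the 9 members recurred in part of this wider group, whose median control gap was 0.27 log2 units. In 6 of 24 control replicate 2 was more than 2-fold above control replicate 1 (6.54% of tested genes), and in 4 it was the highest library and control replicate 1 the lowest (9.3% of tested genes). Per1, a clock gene with a glucocorticoid response element, had 25.4 and 71.3 CPM with saline and 55.2 and 35.7 CPM with RTX. Pdk4, which encodes a kinase that inhibits pyruvate dehydrogenase, had 13.7 and 59.3 CPM with saline and 36.2 and 11.2 CPM with RTX. Txnip, a thioredoxin-binding protein gene, had 530 and 1436 CPM with saline and 774 and 475 CPM with RTX. In Pdk4 and Txnip stressed replicate 2, not control replicate 1, was the lowest library. In 4 of the 24 the gap ran the other way, against 7.77% of tested genes. Among them was Rgs2, a regulator of G protein signalling, at 62.9 and 24.0 CPM in the controls. The widest control gap of the 24 was also in this direction, in Lcn2, with 182 and 7 counts with saline and 543 and 52 with RTX. Nfkbia, which encodes the NF-kB inhibitor IkBa, had control libraries close together, at 283 and 345 CPM, with stressed libraries at 369 and 239 CPM.

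**Figure D4:**
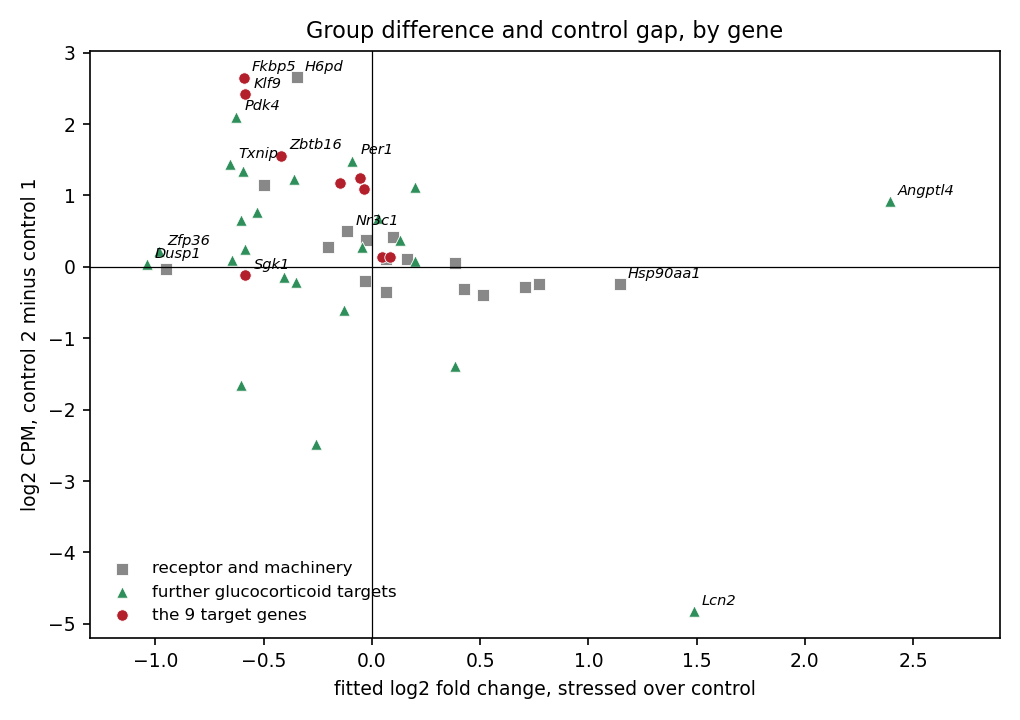
Control gap (log2 CPM of control replicate 2 minus control replicate 1, vertical) against the fitted log2 fold change (horizontal) for the 9 members (red), 24 further targets (green) and 17 receptor and machinery genes (grey). Both axes use the control libraries, so no relation between them is read. Fkbp5, Klf9, H6pd and Pdk4 stand highest, Lcn2 stands lowest, and Angptl4 lies far to the right.

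Relatives and partners of single members differed from them. Beside Mt1 and Mt2, the metallothionein gene Mt4, which is expressed in stratified epithelium, fell by DESeq2 from 25.1 and 8.39 CPM in the controls to 0.657 and 1.55 CPM (adjusted p = 2.36e-05) and did not pass edgeR (adjusted p = 0.137). The summed keratinocyte markers, given above, were lower in each RTX library as well, and their part in the Mt4 value was not tested. Mt3 had 3 counts in stressed replicate 2 and 0 in the other libraries. Mtf1, which encodes the metal-sensing factor that drives Mt1 and Mt2, had 26.8 and 39.2 CPM with saline and 43.2 and 41.2 CPM with RTX. The zinc exporter gene Slc30a1 had 12.9 and 10.9 CPM with saline and 12.2 and 16.9 CPM with RTX. Neither passed edgeR or DESeq2. Of the 5 tested genes of metal handling, 1 fell and 0 rose by DESeq2, against 2.67% and 1.75% of tested genes.

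Ddit4l, the paralog of Ddit4, had 2 and 0 counts with saline and 46 and 60 with RTX. The summed counts per library total were 51.5-fold higher in stressed cells, with a 95% counting interval of 13.9 to 431 (edgeR adjusted p = 0.151, DESeq2 adjusted p = 0.00251). This ratio rests on 2 control counts, both in control replicate 1, and the fitted log2 fold change of 5.48 became 8.77 without that library and 4.44 without control replicate 2. It was the 1 of 8 TORC1 inhibitors and partners called by DESeq2, which called 4.41% of tested genes. Among 8 genes of ERBB receptors, which the Errfi1 product inhibits, and of their ligands, 0 were called by DESeq2. This count is near the 4.41% of all tested genes. Egfr had 90.4 and 103 CPM with saline and 73.8 and 64.3 CPM with RTX, and Erbb3, the ERBB receptor most read here, had 584 and 733 CPM with saline and 695 and 712 CPM with RTX. Among the C/EBP factors and their relative Ddit3, 1 of 4 tested genes was called by DESeq2 (4.41% of all tested genes). This was Cebpa, with 26.1 and 19.2 CPM in saline and 6.29 and 9.37 CPM in RTX libraries (DESeq2 adjusted p = 0.0171, edgeR adjusted p = 0.178), while Cebpb had 166 and 150 CPM with saline and 140 and 98.0 CPM with RTX and was not called.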

How the data were processed

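The deposited values are read counts per gene in 4 libraries. Per the file headers, the authors made these counts with featureCounts 1.6.1, assigning reads of mapping quality 30 or more to exons by gene name on mm10, without strand or read-pair options. The submitters' processing notes also list Trim Galore 0.4.1, STAR 2.5.3 and DESeq2 1.22.2. The kits named by the labels were RNeasy micro and Smart-Seq V4. Because counting ignored strand, overlapping antisense reads cannot be told apart. The headers of stressed replicates 1 and 2 name alignments 2 and 3.

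Library totals ran from 9273652 to 11854280 counts, where 3 counts, the most that a count of 0 allows, equal 0.253 to 0.323 CPM. Intervals cover counting error only: the reads carry no molecular identifiers and can be copies of 1 molecule. Counts were filtered with filterByExpr (minimum count 10), scaled by TMM and tested over all genes with the quasi-likelihood F-test of edgeR 4.0.16 in R 4.3.3, two-sided, with Benjamini-Hochberg adjustment at 0.05. The SE is the absolute log2 fold change over the square root of F. Gaps are differences of log2(CPM + 0.1). Alternatives were DESeq2 1.42.0, limma-voom (limma 3.58.1), other scalings and filters, a replicate block and leaving out each library. Scripts were tested on simulated data. Promoter windows are those of RefSeq (GRCm38.p6).

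All members were named whatever their result, as were set key genes of the pathway lists and any list gene called by edgeR or DESeq2. The Plce1, Ifi47, Tgtp2 and H6pd names came from a set rule of likeness. Pdk4, Txnip, Rgs2, Lcn2 and the marker genes named singly were chosen after their values were seen. These markers were Cd74, H2-Aa, Ptprc, Dcn, Col1a1, Krt6a, Lpl, Mitf, Sox10 and Ednrb. The members and the lists were chosen with earlier results of these data known.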

Additional observations from a re-analysis of the deposited data

How the results depend on the processing

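The main test called 0 genes in all (1705 at an unadjusted p below 0.05; limma-voom called 0, with 1700) and 0 members. Without a low-count filter beyond 1 count edgeR called 760 genes in all, 1 of the receptor and machinery genes and 3 of the further targets. DESeq2 called 589, 3 and 3, and the edgeR likelihood ratio test, added after seeing the data, 549, 1 and 3. With 1 library left out, edgeR called 0 to 995 genes in all, 0 to 2 members, 0 to 3 machinery genes and 0 to 9 further targets, with 995, 2, 1 and 3 when control replicate 2 was left out and 866, 2, 3 and 9 when control replicate 1 was. DESeq2 with 1 library left out, also added later, called 45 to 826 genes (495 and 826 when control replicate 1 or 2 was left out, 143 and 45 for stressed replicate 1 or 2), 0 to 2 members, 0 to 4 machinery genes and 1 to 5 further targets. The members' median log2 fold change ran from -0.54 to 0.57 with 1 library left out, and their median control gap between 1.16 and 1.18 under the scalings tried. Why the calls change with the control left out was not tested.

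Some signs turned. Under limma-voom Tsc22d3 was at 0.036, Ddit4 at -0.043, Mt1 at 0.055, Per1 at 0.014 and H6pd at 0.060. With the replicate number as a block, which called 0 genes, Tsc22d3 was at 0.023, Ddit4 at -0.028, Mt1 at 0.043, Per1 at 0.048 and H6pd at 0.11. The labels do not say that a number marks shared animals or days, and by the alignment numbers in the file headers (1 and 2 for the controls, 2 and 3 for the stressed libraries) stressed replicate 1 would share a number with control replicate 2, so the block and the correlation that follows hold for the label numbers only. The gaps of the control and stressed pairs correlated at 0.17 over 13348 genes, which are not replicates. With 1 library left out, the lowest and highest log2 fold changes, for the 20 genes named in the text whose sign turned, were -1.37 and 1.28 for Fkbp5, -0.54 and 0.70 for Tsc22d3, -0.99 and 0.57 for Zbtb16, -1.33 and 1.09 for Klf9, -0.51 and 0.46 for Ddit4, -0.16 and 0.30 for Errfi1, -0.47 and 0.61 for Mt1, -0.61 and 0.56 for Mt2, -0.34 and 0.16 for Nr3c1, -0.96 and 0.20 for Nr3c2, -0.64 and 0.84 for Per1, -0.39 and 0.24 for Nfkbia, -0.054 and 0.27 for Erbb3, -1.13 and 1.56 for H6pd, -1.71 and 0.79 for Pdk4, -1.19 and 0.24 for Txnip, -0.23 and 1.24 for Rgs2, -1.18 and 1.18 for Plce1, -1.42 and 1.14 for Ifi47 and -1.70 and 1.49 for Tgtp2. Lcn2 also turned, between -1.08 and 5.54, and is not among the 20. So did the melanocyte markers Mitf (-0.071 and 0.56), Sox10 (-0.28 and 0.57) and Ednrb (-0.085 and 0.085). Among the members, depth limits Ddit4, Zbtb16 and Fkbp5, which had under 100 counts in at least 1 library.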
